A study of Mus musculus with 48 samples.

Results

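The comparison described here is JQ1 against vehicle in the left ventricle of 8-week-old PLNR9C mice, 3 libraries against 3. They are 6 of the 48 libraries of the series, chosen by their titles, and every gene with enough reads was taken: 15501 of the 31920 genes of the 8-week table. PLNR9C is an amino acid change in phospholamban that causes dilated cardiomyopathy, and mice of this age, wild type included, carry the disease stage preDCM. All mice of the series are of the FVB strain and received either JQ1 at 50 mg/kg or vehicle. The 6 libraries are PLNR9C with JQ1 at 8 weeks (replicates 1 to 3) and PLNR9C with vehicle at 8 weeks (replicates 1 to 3). Set beside them were wild type mice of the same age with JQ1 (3 libraries) or vehicle (3), PLNR9C mice with JQ1 (3) or vehicle (3) at 20 weeks, and pooled cells of 16-week hearts, either cardiomyocytes or non-myocytes (PLNR9C and wild type, JQ1 and vehicle, 3 pools each). Each ventricle library is total RNA of the whole left ventricle, extracted with TRIzol and made into a Nextera library, and the design text calls the replicates individual. The sources used here do not give how the allele was made and expressed, the sex of the mice, the route, start and length of dosing, or the hour of sampling.

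Phospholamban sits in the membrane of the sarcoplasmic reticulum and holds back SERCA2, the pump that returns calcium to its store after each beat. JQ1 is a small molecule that fills the acetyl-lysine pocket of the BET family of proteins, such as BRD2, so that they leave acetylated histones. BET proteins at enhancers and promoters help to bring in P-TEFb, the kinase that releases paused RNA polymerase II. P-TEFb is held inactive by the HEXIM proteins with 7SK RNA, and a rise of Hexim1 is widely used as a sign that a BET inhibitor has acted. In the heart, BET proteins are known for their part in the transcription of stress, matrix and inflammatory genes.

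The 12 ventricle libraries of the 8-week table held between 16984138 and 27086694 reads counted to genes. Log2 CPM (CPM are reads of a gene per 1e+06 counted reads, after TMM scaling of the library sizes) correlated at 0.988 to 0.990 between the libraries of one group and at 0.969 to 0.975 between the JQ1 and vehicle groups of PLNR9C. The first principal component of the 6 libraries took 62.3% of the variance and separated JQ1 from vehicle. No pair of libraries agreed within counting noise, so none was counted as a repeat. The tissue label fits the data: the sarcomere list summed to between 60214 and 66950 CPM in the vehicle libraries. The Y-linked gene Ddx3y stood at 90.1 to 96.8 CPM in the 6 PLNR9C libraries and Xist at 2.54 to 4.34 CPM.

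With JQ1, 2396 genes rose and 2737 fell in PLNR9C ventricle, by edgeR's quasi-likelihood test with a Benjamini-Hochberg adjusted p under 0.05. That is 33.1% of the genes tested, 15.5% upward and 17.7% downward, and these shares are the background against which every list below is read. The changes were mostly small: 210 of the rises and 808 of the falls reached 2-fold, which leaves the large changes mainly on the downward side. The median over all genes was -0.01 on the log2 scale. The 3 and 3 libraries did not overlap for 6975 genes, 45% of those tested. Genes named below as the largest changes were picked among these, and most list members by small p. Gaps between the groups of such genes are therefore no added evidence. The labels do not say whether mice of a group shared a litter or cage, so the p-values measure the spread between these mice. Because the tissue is a mixture, fewer cells of a type and less RNA per cell cannot be told apart in any value below.

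**Figure D1:**
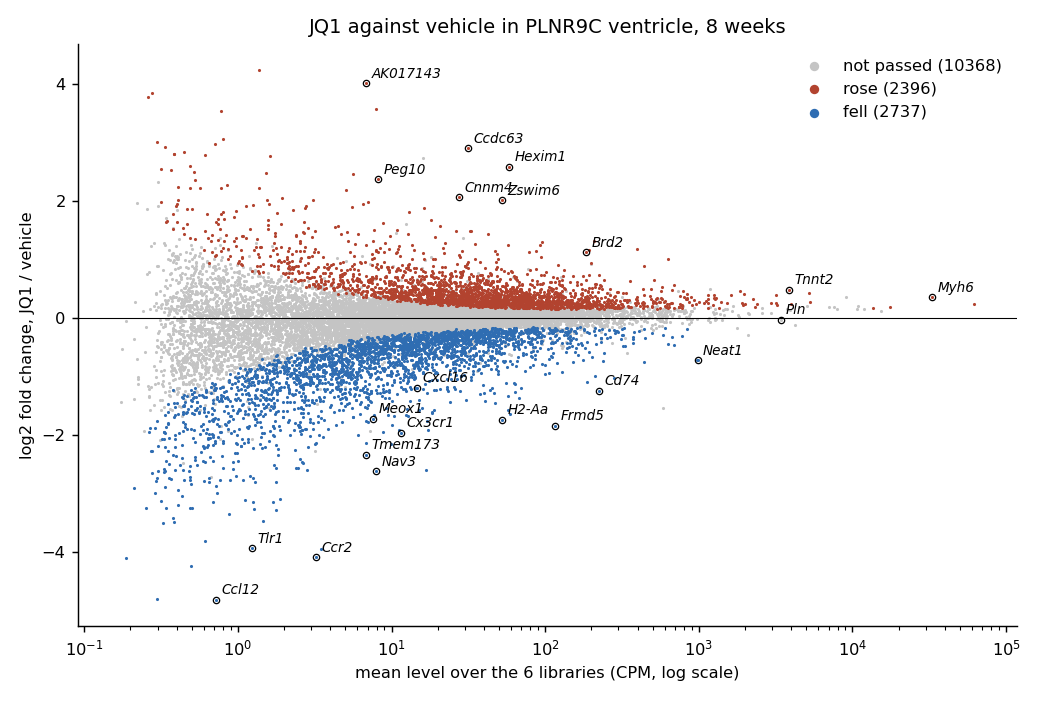
Each point is 1 of the 15501 genes tested: its mean level over the 6 PLNR9C libraries (CPM, log axis) and its log2 fold change with JQ1, red where it rose, blue where it fell and grey where it did not pass. Named genes are circled, among them the rises of AK017143 (4.01), Ccdc63 (2.90) and Hexim1 (2.58) and the falls of Ccr2 (-4.09) and Tlr1 (-3.94).

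The promoters of 5 of the genes with large changes are shown so that start regions of rises and falls can be set side by side: Hexim1, Cnnm4 and Zswim6 rose, and Cx3cr1 and Adcyap1r1 fell. Each is the 250 bases before the start site in RefSeq (GRCm38.p6), read from 5′ to 3′ on the strand of the gene. Capitals mark letters of the TATA box (TATAAA), of the GC box (GGGCGG) or of the CCAAT box on either strand.
Hexim1, chr11:103116075-103116324, plus strand: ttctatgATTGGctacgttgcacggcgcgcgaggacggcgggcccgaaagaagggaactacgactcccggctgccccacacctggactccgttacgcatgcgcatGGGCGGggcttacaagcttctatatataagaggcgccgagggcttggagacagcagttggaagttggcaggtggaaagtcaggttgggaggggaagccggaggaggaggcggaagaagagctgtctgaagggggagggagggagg
Cnnm4, chr1:36471347-36471596, plus strand: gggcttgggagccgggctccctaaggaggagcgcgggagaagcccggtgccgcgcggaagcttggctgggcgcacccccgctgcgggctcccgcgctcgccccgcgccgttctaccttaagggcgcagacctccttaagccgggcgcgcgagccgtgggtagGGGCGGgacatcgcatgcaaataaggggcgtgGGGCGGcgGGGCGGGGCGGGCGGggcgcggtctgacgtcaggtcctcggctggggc
Zswim6, chr13:107890065-107890314, minus strand: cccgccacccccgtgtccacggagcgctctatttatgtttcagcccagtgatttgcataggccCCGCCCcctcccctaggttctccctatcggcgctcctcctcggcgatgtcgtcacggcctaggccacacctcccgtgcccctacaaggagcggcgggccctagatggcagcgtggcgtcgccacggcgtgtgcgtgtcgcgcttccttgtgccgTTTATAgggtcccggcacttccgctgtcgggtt
Cx3cr1, chr9:120068297-120068546, minus strand: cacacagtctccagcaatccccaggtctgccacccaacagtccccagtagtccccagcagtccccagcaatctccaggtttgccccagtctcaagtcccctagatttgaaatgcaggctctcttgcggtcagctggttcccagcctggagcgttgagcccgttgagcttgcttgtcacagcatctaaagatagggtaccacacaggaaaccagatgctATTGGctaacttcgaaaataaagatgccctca
Adcyap1r1, chr6:55451728-55451977, plus strand: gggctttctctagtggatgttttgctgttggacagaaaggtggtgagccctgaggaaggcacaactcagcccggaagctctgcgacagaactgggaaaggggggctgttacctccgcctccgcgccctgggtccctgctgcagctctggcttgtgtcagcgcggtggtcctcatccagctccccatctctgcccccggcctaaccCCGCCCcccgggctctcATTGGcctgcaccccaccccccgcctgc
The Hexim1 window holds 1 GGGCGG and 1 CCAAT, and that of Cnnm4 holds 5 GGGCGG, some of which overlap one another. Zswim6 has 1 TATAAA and 1 GGGCGG, Cx3cr1 has 1 CCAAT, and Adcyap1r1 has 1 GGGCGG and 1 CCAAT. Of the 32851 RefSeq promoters of this length, 12.4% hold TATAAA, 32.7% GGGCGG and 33.8% CCAAT, so these motifs are common. The matches describe the letters and no binding. CG pairs number 18 in the Hexim1 window, 34 in that of Cnnm4, 26 in Zswim6, 11 in Adcyap1r1 and 4 in Cx3cr1. CG pairs were not counted over all promoters, and 5 picked windows cannot tie them to the direction of change.

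The genes of the drug's own targets and of P-TEFb control are described first. Hexim1 (chr11:103116325-103119724, the inhibitor of P-TEFb) stood at 16.7, 17.4 and 15.9 CPM with vehicle and at 95.4, 104 and 101 CPM with JQ1, a log2 fold change of 2.58 ± 0.07 (SE, adjusted p = 2.70e-15). That is a 5.99-fold rise, and every JQ1 library was more than 5 times above every vehicle library. Hexim2, the related gene that lies next to it on chromosome 11 (chr11:103133339-103139908), went the other way at a level near 1 CPM, at 1.04, 1.02 and 1.38 CPM with vehicle and at 0.455, 0.359 and 0.173 CPM with JQ1, a log2 fold change of -1.73 ± 0.44 (SE, adjusted p = 0.00537). The 3 and 3 libraries of Hexim2 did not overlap. Brd2, one of the JQ1 targets, stood at 122, 119.9 and 109 CPM with vehicle and at 243, 259.9 and 261 CPM with JQ1, a log2 fold change of 1.12 ± 0.07 (SE, adjusted p = 7.82e-10). The groups were apart. Brd3 rose by 0.18 (adjusted p = 0.0402), a call that was lost in each of 5 of the 6 fits that left out 1 library (all but JQ1 replicate 2, adjusted p up to 0.133), without the filter on low counts (0.0522) and under upper-quartile scaling (0.104). Brdt, the testis form, stayed near 1 CPM (log2 fold change 0.41, adjusted p = 0.352).

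Of the 16 genes of the BET and P-TEFb list, 8 rose and 1 fell, with a median of 0.26. Mepce, which caps and protects 7SK RNA, stood at 26.9, 29.7 and 30.0 CPM with vehicle and at 45.6, 54.8 and 55.6 CPM with JQ1, a log2 fold change of 0.85 ± 0.08 (SE, adjusted p = 5.77e-07). Ell2 and Aff4, parts of the super elongation complex that carries active P-TEFb, rose by 0.70 and 0.39 on the log2 scale (adjusted p = 1.75e-05 and 3.03e-04). Mllt3, another partner of that complex, stood at 7.69, 9.16 and 8.96 CPM with vehicle and at 11.98, 11.3 and 13.2 CPM with JQ1, a log2 fold change of 0.50 ± 0.11 (SE, adjusted p = 0.00239). No library of one group crossed into the other for Mepce, Ell2 or Mllt3.

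Histone genes rose as a group: 12 of 17 tested rose, none fell, and the median was 0.76. H2afx, the H2A form that is phosphorylated at DNA breaks, stood at 4.65, 4.07 and 4.31 CPM with vehicle and at 14.0, 13.6 and 12.5 CPM with JQ1, a log2 fold change of 1.62 ± 0.13 (SE, adjusted p = 6.90e-08). Hist1h2bc stood at 9.61, 10.9 and 11.7 CPM with vehicle and at 28.6, 27.1 and 27.9 CPM with JQ1, a log2 fold change of 1.38 ± 0.11 (SE, adjusted p = 6.90e-08). H3f3b, which codes for the replication-independent histone H3.3, stood at 59.1, 54.9 and 50.8 CPM with vehicle and at 119.9, 151 and 118 CPM with JQ1, a log2 fold change of 1.24 ± 0.08 (SE, adjusted p = 9.47e-09). The linker histone Hist1h1c (log2 fold change 0.998 ± 0.14, adjusted p = 1.14e-04) and the smaller Hist1h4i (log2 fold change 1.87 ± 0.21, adjusted p = 2.52e-06) rose as well. In all 5 genes the lowest JQ1 library was above the highest vehicle library. Histone genes share long stretches of sequence and many lack a poly(A) tail, so counts of single members are uncertain.

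Among other transcription genes, the immediate early list had 9 rises and 1 fall of 24, against 15.5% and 17.7% of all genes. The fits without 1 library had 6 to 9 rises and 0 to 1 fall. The list median was 0.40, and 0.17 without JQ1 replicate 2. Jund, an AP-1 subunit, stood at 57.3, 52.9 and 51.8 CPM with vehicle and at 112, 123 and 125 CPM with JQ1, a log2 fold change of 1.15 ± 0.07 (SE, adjusted p = 1.21e-09). Klf4 rose by 0.73 ± 0.08 (SE, adjusted p = 2.66e-06) and Dusp1, a phosphatase of MAP kinases, by 0.73 ± 0.12 (SE, adjusted p = 4.49e-04). Fos and Egr1 were less even: Fos stood at 3.04, 3.84 and 1.71 CPM with vehicle and at 6.15, 21.4 and 6.33 CPM with JQ1, a log2 fold change of 1.99 ± 0.63 (SE, adjusted p = 0.0402), with JQ1 replicate 2 above the rest. Its call was lost without JQ1 replicate 2 (adjusted p = 0.11) or without any 1 of the vehicle libraries (adjusted p from 0.073 to 0.11). It was lost with the 6 PLNR9C libraries alone (0.111) and without the filter on low counts (0.0556) as well. Egr1 had the same high library and did not pass (22.1, 77.2 and 26.1 CPM with JQ1, adjusted p = 0.0955), although DESeq2 gave it an adjusted p of 0.0345. Fosl1 fell by 0.76 on the log2 scale, and lost its call without JQ1 replicate 1 (adjusted p = 0.082) or vehicle replicate 1 (0.06).

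Myc, the transcription factor of cell growth whose loss under BET inhibition is known from tumours, stood at 7.15, 8.51 and 8.46 CPM with vehicle and at 3.87, 4.81 and 4.08 CPM with JQ1, a log2 fold change of -0.91 ± 0.20 (SE, adjusted p = 0.00157). All vehicle libraries were above all JQ1 libraries. Mxd1, a partner of Max that opposes Myc, went up from 12.3, 13.1 and 11.7 CPM to 25.2, 25.2 and 24.8 CPM (log2 fold change 1.01 ± 0.10, adjusted p = 9.70e-07). No gene of ribosome assembly on the list, many of which are known Myc targets, passed as a fall. That list also holds Myc and Mxd1: of its 21 genes 9 rose, Mxd1 among them, and 1, Myc itself, fell. The list median was 0.07, and 15.5% of all genes rose. The fits without 1 library had 6 to 9 rises. Nop56, a core protein of small nucleolar ribonucleoproteins, stood at 26.6, 27.1 and 22.8 CPM with vehicle and at 45.9, 50.8 and 51.8 CPM with JQ1, a log2 fold change of 0.95 ± 0.08 (SE, adjusted p = 1.41e-07).

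The other large rises come from varied functions. Ccdc63, a coiled-coil protein gene (chr5:122108056-122138062), stood at 4.88, 9.76 and 7.80 CPM with vehicle and at 40.8, 66.6 and 58.3 CPM with JQ1, a log2 fold change of 2.90 ± 0.31 (SE, adjusted p = 1.34e-04). It lies beside Myl2 (chr5:122100980-122106854), the ventricular light chain of myosin, which rose by 0.27 on the log2 scale, a call lost without vehicle replicate 2 (adjusted p = 0.0627). Cnnm4, a magnesium transporter, stood at 12.1, 11.1 and 8.41 CPM with vehicle and at 42.6, 45.7 and 45.0 CPM with JQ1, a log2 fold change of 2.06 ± 0.10 (SE, adjusted p = 9.76e-11). Zswim6 stood at 23.0, 20.5 and 18.3 CPM with vehicle and at 80.1, 77.7 and 92.8 CPM with JQ1, a log2 fold change of 2.01 ± 0.10 (SE, adjusted p = 3.41e-10). Ccdc63, Cnnm4 and Zswim6 kept the groups fully apart, as the rule that picked them required. Peg10, an imprinted gene derived from a retrotransposon and picked the same way, did so too (log2 fold change 2.37 ± 0.15, adjusted p = 1.15e-09). Nptxr, the neuronal pentraxin receptor, rose by 1.88 ± 0.13 (SE, adjusted p = 5.29e-09). Lonrf3 rose by 1.95 ± 0.34 (SE, adjusted p = 0.00120). The transcript with the clone name AK017143 (chr5:23382308-23433336, minus strand) stood at 0.807, 0.786 and 0.774 CPM with vehicle and at 13.7, 11.9 and 13.0 CPM with JQ1, a log2 fold change of 4.01 ± 0.22 (SE, adjusted p = 2.57e-10). Its start lies 1093 bases from that of Mll5, a histone reader gene that runs the other way (chr5:23434429-23504229). Mll5 fell by 0.25 on the log2 scale (adjusted p = 0.00231). Mll5 is named here for its position only.

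The large falls also spanned cell types. Nav3, a gene of the cytoskeleton, stood at 10.7, 16.9 and 13.5 CPM with vehicle and at 1.05, 2.69 and 2.93 CPM with JQ1, a log2 fold change of -2.63 ± 0.25 (SE, adjusted p = 2.86e-06). Pirt stood at 8.46, 13.3 and 11.6 CPM with vehicle and at 2.37, 2.69 and 2.47 CPM with JQ1, a log2 fold change of -2.13 ± 0.20 (SE, adjusted p = 6.07e-07). For both the groups were apart, as the rule that picked them required, and JQ1 replicate 1 had the lowest Nav3 of its group. Adcyap1r1, the receptor of the neuropeptide PACAP, stood at 14.3, 13.3 and 14.2 CPM with vehicle and at 3.46, 4.24 and 2.99 CPM with JQ1, a log2 fold change of -1.95 ± 0.17 (SE, adjusted p = 1.73e-07). Ky, Klhdc7a and Frmd5 fell by 1.93 ± 0.24 (SE, adjusted p = 2.22e-04), 1.92 ± 0.30 (SE, adjusted p = 8.64e-04) and 1.85 ± 0.12 (SE, adjusted p = 4.37e-07), and Frmd5 was the most abundant of them at 181 ± 9.504 CPM with vehicle (SD, n = 3). In the 16-week cell pools, Pirt, Klhdc7a and Frmd5 were higher in cardiomyocytes and Nav3 and Adcyap1r1 in non-myocytes, so the list of large falls is not of one cell type.

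**Figure D2:**
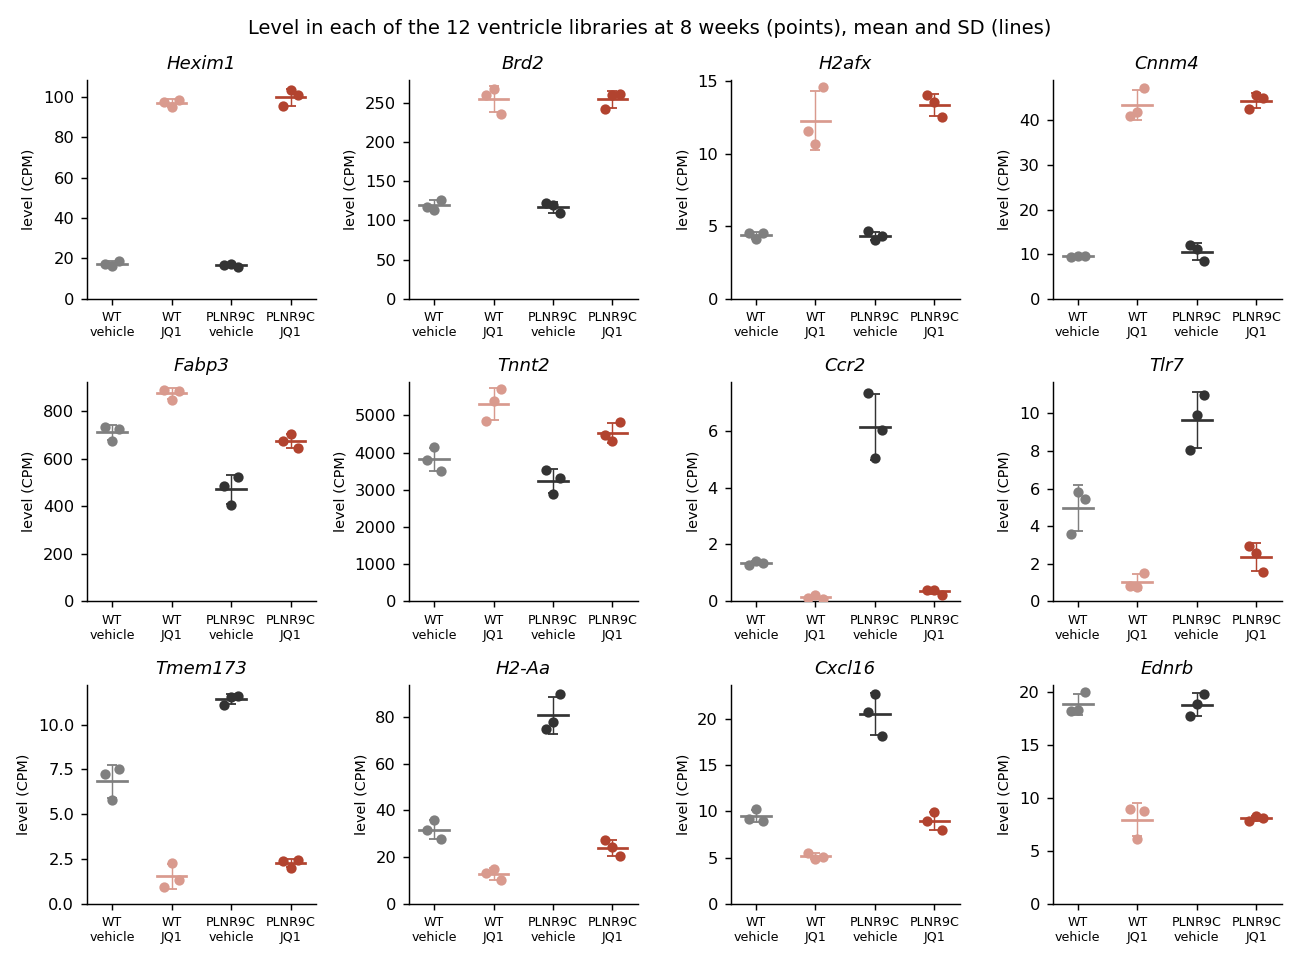
Level (CPM, linear axes from 0) of 12 genes in the 12 ventricle libraries at 8 weeks, with the mean (line) and SD (bars, n = 3) of each group. In PLNR9C the JQ1 points of Hexim1, Brd2, H2afx, Cnnm4, Fabp3 and Tnnt2 lie above all vehicle points, and those of Ccr2, Tlr7, Tmem173, H2-Aa, Cxcl16 and Ednrb below them.

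Among the gene lists of cell types and pathways, 4 immune lists had mostly falls among their calls, and the lists of the sarcomere and of fuel use had mostly rises. The inflammatory cytokine and NF-kB list had no rise and 13 falls among 24 genes tested, the interferon list 2 and 15 of 30, the innate sensor list 1 and 11 of 23, and the list of MHC class II and antigen presentation none and 10 of 15. The shares that fell lie above the 17.7% that fell among all genes. Their medians were -0.50, -0.47, -0.40 and -0.55. On the other side stood the sarcomere list with 11 rises of 20, the tricarboxylic acid cycle list with 12 of 19, glycolysis with 12 of 22 and fatty acid oxidation with 13 of 27, with medians between 0.18 and 0.22. Other muscle and metabolic lists did not share this: calcium handling had 5 rises and 2 falls of 19 (3 to 5 rises without 1 library), and mitochondrial regulators 4 and 3 of 19 (1 to 4 rises). Ion channels had more falls than rises, and cardiac transcription factors 5 rises and 6 falls (4 to 7 rises and 6 falls without 1 library). Complement, another immune list, had 3 falls of 16, near the background. Leaving out any 1 library left 9 to 11 falls in the cytokine list, 11 to 13 in the interferon list, 10 to 11 among the sensors and 8 to 10 in the MHC list. The same fits gave 10 to 14 rises in fatty acid oxidation and 8 to 10 in glycolysis. The sarcomere list kept only 6 rises without vehicle replicate 2, and the tricarboxylic acid cycle list 7 without JQ1 replicate 1, JQ1 replicate 3 or vehicle replicate 2. The shares also went with level: among genes above 101.6 CPM 32.8% rose and 8.65% fell, with a median of 0.11. The sarcomere and fuel genes whose levels are given below lie above that level.

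**Figure D3:**
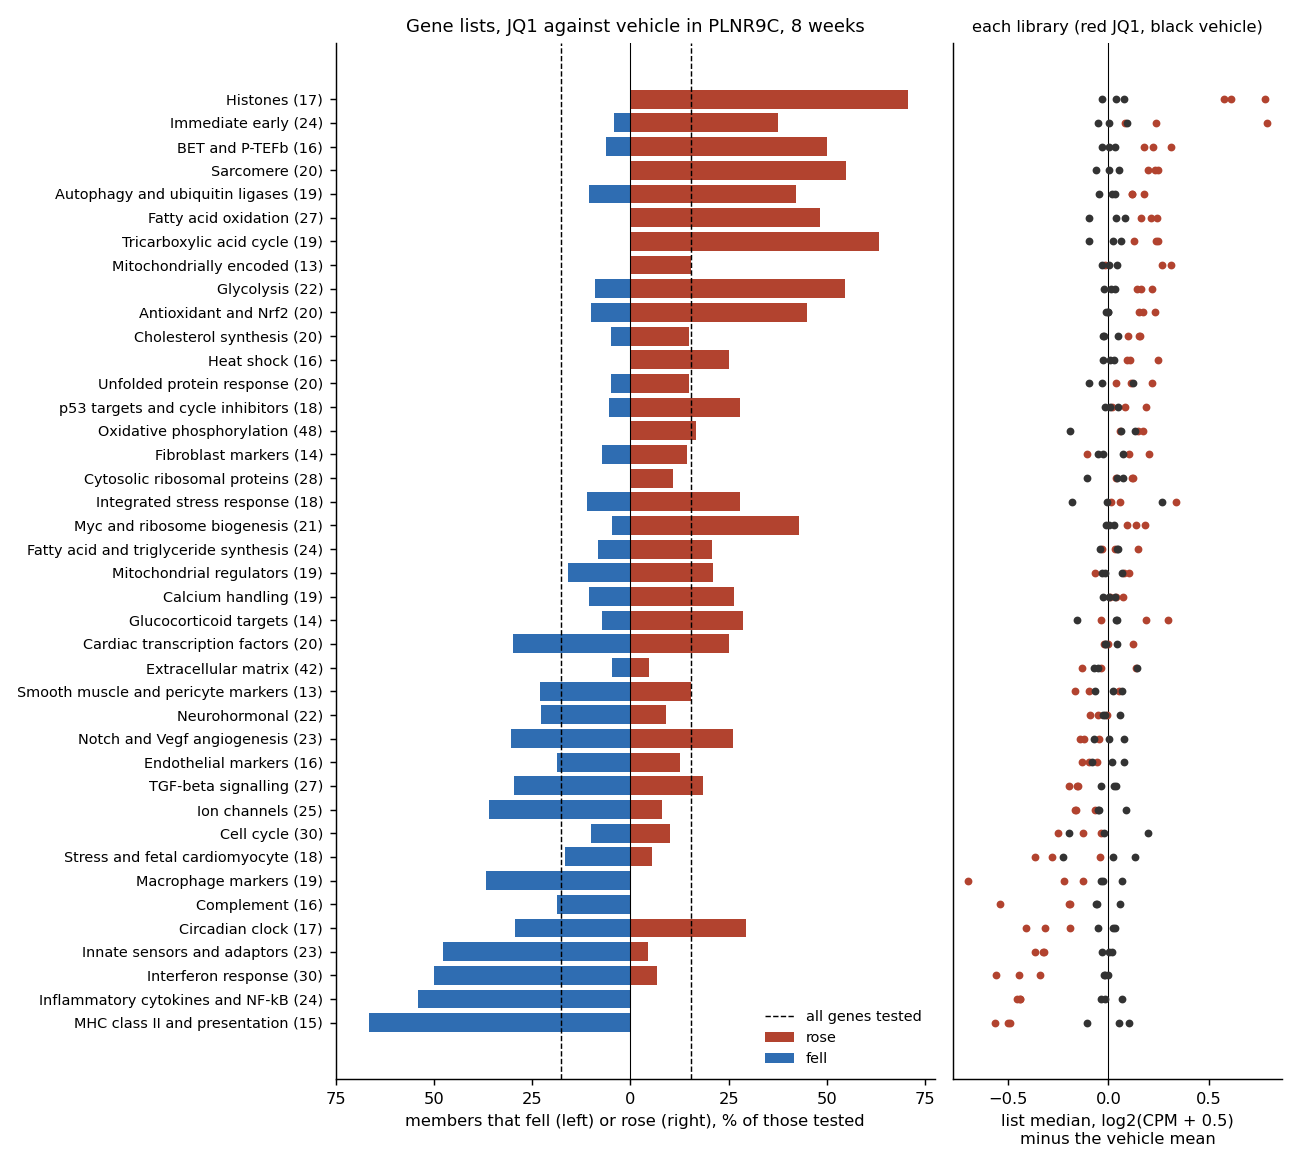
Left, the share of tested members (number in brackets) that rose (red) or fell (blue) with JQ1 in PLNR9C, for lists with at least 12 tested members, against the 15.5% and 17.7% of all genes (dashed). Right, the median of each list in each library as log2(CPM + 0.5) minus the mean of the vehicle libraries: the 3 JQ1 libraries of the histone list lie between 0.57 and 0.78 and those of the MHC class II list between -0.56 and -0.49.

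The deepest fall among genes of monocytes was in Ccr2, the receptor for CCL2 that brings monocytes from blood into tissue. Ccr2 (chr9:124102183-124113557) stood at 7.34, 5.04 and 6.03 CPM with vehicle and at 0.410, 0.395 and 0.230 CPM with JQ1, a log2 fold change of -4.09 ± 0.28 (SE, adjusted p = 4.18e-09). The highest JQ1 library was more than 10 times below the lowest vehicle library. Cx3cr1, the fractalkine receptor of monocytes and resident macrophages, stood at 20.5, 19.9 and 14.8 CPM with vehicle and at 1.82, 8.79 and 2.99 CPM with JQ1, a log2 fold change of -1.96 ± 0.44 (SE, adjusted p = 0.00906). JQ1 replicate 2 kept more Cx3cr1 than the other JQ1 libraries, though still less than any vehicle library, and the call was lost when the spread was taken from the 6 PLNR9C libraries alone (adjusted p = 0.0735). Itgam, the CD11b integrin chain, fell by 0.80 ± 0.17 (SE, adjusted p = 0.00146).

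Several general markers of macrophages moved less, though other members of the list fell. Csf1r, the receptor that macrophages need to survive, stood at 111, 116 and 103 CPM with vehicle and at 101, 105 and 88.0 CPM with JQ1, a log2 fold change of -0.17 ± 0.12 (SE, adjusted p = 0.281), and Cd68 at 12.03, 13.9 and 11.6 CPM against 10.2, 13.4 and 6.50 CPM (adjusted p = 0.309). C1qa, C1qb and C1qc, the complement chains of resident macrophages, had log2 fold changes of 0.23, -0.13 and -0.11 (adjusted p of 0.183, 0.573 and 0.430). Lyz2 and the phagocytic receptor Mertk, with log2 fold changes of 0.19 (adjusted p = 0.462) and 0.28 (adjusted p = 0.109), did not pass either. Over the whole macrophage list 7 of 19 fell and none rose, with a median of -0.30. Only 4 fell without JQ1 replicate 3 or without vehicle replicate 2, and in the first of these fits 2 rose. Its summed level was 642 to 703 CPM in the vehicle libraries and 503 to 715 CPM in the JQ1 libraries, so the groups overlapped. JQ1 replicate 3 was the lowest: the list median relative to the vehicle mean was -0.22, -0.13 and -0.70 in JQ1 replicates 1 to 3. Emr1 (F4/80) and Mrc1 (CD206) fell by 0.60 and 0.41 on the log2 scale, and both lost the call without that library (adjusted p = 0.056 and 0.075). Emr1 also lost it without vehicle replicate 2 (0.072), and Mrc1 without any 1 vehicle library (0.063 to 0.098), with the 6 PLNR9C libraries alone (0.0513) and without the filter on low counts (0.0778). Timd4, another member of the list, fell by 1.27 (adjusted p = 0.00943), a call lost without JQ1 replicate 2 (0.055). Ctss fell by 0.45 (adjusted p = 0.0415), a call kept only in the fit without JQ1 replicate 2 (adjusted p up to 0.164 in the others). Without JQ1 replicate 3, the falls of Ccr2, Cx3cr1, Itgam and Timd4 still passed. The part of macrophage number in the falls described next was not tested.

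Of the 23 innate sensors and adaptors tested 11 fell, 1 rose and 11 did not pass, and the falls include sensors of microbial products and of nucleic acids. Tmem173, which codes for STING, the adaptor that responds to DNA in the cytosol, stood at 11.1, 11.5 and 11.6 CPM with vehicle and at 2.37, 2.01 and 2.42 CPM with JQ1, a log2 fold change of -2.34 ± 0.19 (SE, adjusted p = 7.07e-08). Tlr7, the endosomal receptor for single-stranded RNA, stood at 8.07, 9.90 and 11.01 CPM with vehicle and at 2.96, 2.55 and 1.55 CPM with JQ1, a log2 fold change of -2.004 ± 0.24 (SE, adjusted p = 6.77e-06). Tlr4, the receptor for bacterial lipopolysaccharide, stood at 22.5, 25.6 and 19.1 CPM with vehicle and at 7.88, 10.5 and 10.5 CPM with JQ1, a log2 fold change of -1.22 ± 0.13 (SE, adjusted p = 1.40e-06). None of the 3 genes had an overlap between groups, and the levels of Tmem173 varied little within a group. Tlr1 and Tlr9, receptors for lipopeptides and for CpG DNA, fell by 3.94 ± 0.42 (SE, adjusted p = 1.39e-06) and 2.16 ± 0.36 (SE, adjusted p = 1.65e-04) from about 2 CPM. Nlrp3, the sensor of the best known inflammasome, fell by 1.42 ± 0.39 (SE, adjusted p = 0.00943). The rise was in Irf3, the transcription factor downstream of STING, by 0.30 ± 0.07 (SE, adjusted p = 0.00445).

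The MHC class II molecules, which present peptides to helper T cells, fell together. H2-Aa stood at 74.9, 77.8 and 89.98 CPM with vehicle and at 27.4, 24.4 and 20.4 CPM with JQ1, a log2 fold change of -1.74 ± 0.14 (SE, adjusted p = 1.37e-06). Cd74, the invariant chain that guides class II molecules to the endosome, stood at 284, 309.6 and 357 CPM with vehicle and at 159, 126 and 115 CPM with JQ1, a log2 fold change of -1.24 ± 0.15 (SE, adjusted p = 1.20e-04). Both had every JQ1 library below every vehicle library, as had H2-Ab1 (log2 fold change -1.58 ± 0.18, adjusted p = 1.24e-04), H2-Eb1 (log2 fold change -1.55 ± 0.19, adjusted p = 1.02e-05) and the peptide loader H2-DMb1 (log2 fold change -1.79 ± 0.34, adjusted p = 5.57e-04). Ciita, the transcription factor that drives class II genes, fell by only 0.42 on the log2 scale, and that call was lost in each of 5 of the 6 fits without 1 library (all but JQ1 replicate 2, adjusted p up to 0.101) and without the filter on low counts (0.0584). Class I genes differed: H2-K1 and B2m had log2 fold changes of 0.17 (adjusted p = 0.358) and -0.17 (adjusted p = 0.454) and did not pass. Related H2 genes can share reads, so values of single members are uncertain.

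Chemokine and NF-kB genes fell at both high and low levels. Cxcl16, a membrane-bound chemokine, stood at 20.7, 22.7 and 18.2 CPM with vehicle and at 8.97, 9.91 and 7.94 CPM with JQ1, a log2 fold change of -1.19 ± 0.12 (SE, adjusted p = 4.96e-07). Ccl12, a ligand of CCR2 in the mouse, stood at 1.73, 0.925 and 1.55 CPM with vehicle and at 0, 0.108 and 0 CPM with JQ1 (adjusted p = 4.50e-05). The groups were apart for both, and Ccl12 was read in only 1 JQ1 library. Selp, the P-selectin of activated endothelium, fell by 1.47 ± 0.33 (SE, adjusted p = 0.00231), and Cxcl12, the retention signal for blood stem cells, by 0.49 ± 0.08 (SE, adjusted p = 2.69e-04). The NF-kB subunits fell by less: Nfkb1 by 0.49 ± 0.07 (SE, adjusted p = 1.41e-05), Relb by 0.50 ± 0.12 (SE, adjusted p = 0.00317) and Rela by 0.31 ± 0.07 (SE, adjusted p = 0.00253). Nfkbia, the inhibitor induced by NF-kB itself, had a log2 fold change of 0.21 (adjusted p = 0.395). Ccl2 did not pass (2.27, 1.62 and 0.940 CPM with vehicle, 1.46, 1.22 and 1.496 CPM with JQ1, adjusted p = 0.627), and Il6 was below the filter on low counts.

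Of the 30 interferon-stimulated genes 15 fell. Gbp2, a guanylate-binding protein, stood at 26.1, 24.1 and 24.5 CPM with vehicle and at 13.3, 11.02 and 11.6 CPM with JQ1, a log2 fold change of -1.06 ± 0.21 (SE, adjusted p = 0.00300), and Psmb8, a subunit of the immunoproteasome, at 11.1, 9.16 and 12.2 CPM with vehicle and at 5.33, 5.64 and 4.83 CPM with JQ1, a log2 fold change of -1.03 ± 0.16 (SE, adjusted p = 6.77e-05). Oasl2 fell by 1.36 ± 0.31 (SE, adjusted p = 0.00653), and the GTPases Igtp and Irgm2, which act on vacuoles that hold parasites, fell by 0.89 ± 0.20 (SE, adjusted p = 0.00457) and 0.95 ± 0.18 (SE, adjusted p = 0.00106). The groups did not overlap for these genes. Stat2, a subunit of the factor that type I interferon activates, moved the other way, at 21.8, 21.6 and 22.6 CPM with vehicle and at 29.5, 39.9 and 31.3 CPM with JQ1, a log2 fold change of 0.62 ± 0.12 (SE, adjusted p = 7.22e-04).

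**Figure D4:**
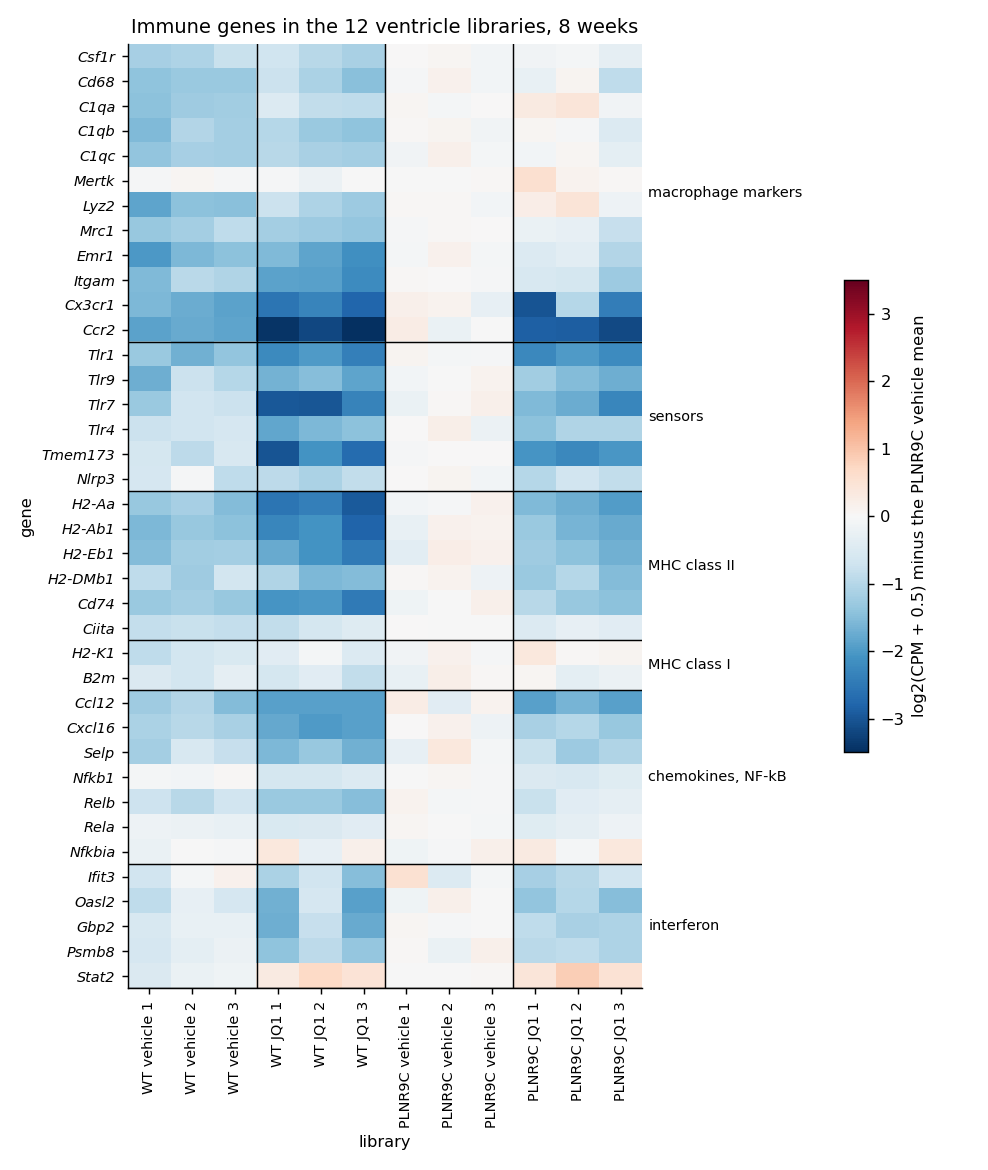
Log2(CPM + 0.5) of immune genes (rows) in the 12 ventricle libraries (columns), each minus its mean in the PLNR9C vehicle libraries. In PLNR9C with JQ1 the macrophage genes Csf1r, Lyz2 and the C1q chains stay near the vehicle colour while Ccr2, Tlr7, Tmem173 and the class II genes are blue, and JQ1 replicate 3 has the lowest Lyz2 and C1q values of the JQ1 libraries.

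On the muscle side, 11 of 20 sarcomere genes rose and none fell. Tnnt2, cardiac troponin T, stood at 3522, 2890.1 and 3322 CPM with vehicle and at 4476, 4302 and 4814 CPM with JQ1, a log2 fold change of 0.48 ± 0.08 (SE, adjusted p = 1.94e-04). Myh6, the fast adult myosin heavy chain of the mouse heart, stood at 29084, 26884 and 31227 CPM with vehicle and at 38078, 33521 and 39787 CPM with JQ1, a log2 fold change of 0.35 ± 0.08 (SE, adjusted p = 0.00183). Actn2 and Ldb3, which build the Z-disc, rose by 0.32 ± 0.06 (SE, adjusted p = 4.66e-04) and 0.34 ± 0.06 (SE, adjusted p = 3.19e-04). In these genes the lowest JQ1 library exceeded the highest vehicle library. Mybpc3, myosin-binding protein C, rose by 0.27 ± 0.08 (SE, adjusted p = 0.00894), and the small heat shock protein Hspb7 by 0.38 ± 0.07 (SE, adjusted p = 4.69e-04). Of the beta-myosin gene Myh7 the libraries overlapped (4387, 5368 and 3582 CPM with vehicle, 3601, 4324 and 4296 CPM with JQ1, adjusted p = 0.569).

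Genes of the fetal and stress program showed 1 rise and 3 falls of 18 tested, which is below the 15.5% and near the 17.7% of all genes, and 1 fall without JQ1 replicate 1 or vehicle replicate 2. Gdf15, a hormone secreted by stressed tissue, stood at 20.5, 17.3 and 14.0 CPM with vehicle and at 7.74, 8.54 and 8.23 CPM with JQ1, a log2 fold change of -1.08 ± 0.21 (SE, adjusted p = 0.00117). Acta1, skeletal actin, stood at 766, 1304 and 532 CPM with vehicle and at 301, 372 and 216 CPM with JQ1, and did not pass although the groups did not overlap (log2 fold change -1.55, adjusted p = 0.0631, and 0.0238 by DESeq2). The natriuretic peptides Nppa and Nppb had log2 fold changes of -0.44 (adjusted p = 0.437) and -0.38 (adjusted p = 0.273). Nppa ranged from 235 to 453 CPM with vehicle and from 137 to 361 CPM with JQ1, so that the groups overlapped. Phospholamban itself, Pln, stood at 3384, 3342 and 3608 CPM with vehicle and at 3157, 3374 and 3558 CPM with JQ1 (log2 fold change -0.03, adjusted p = 0.714).

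Genes of fuel use rose by small steps. Fabp3, the fatty acid carrier of the cytosol, stood at 487, 404 and 522 CPM with vehicle and at 677, 703 and 644 CPM with JQ1, a log2 fold change of 0.52 ± 0.08 (SE, adjusted p = 3.61e-05). Acaa2, the thiolase that ends each turn of beta-oxidation, stood at 379, 312 and 386 CPM with vehicle and at 502, 495 and 512 CPM with JQ1, a log2 fold change of 0.49 ± 0.07 (SE, adjusted p = 3.21e-05). Slc2a4, the insulin-responsive glucose transporter GLUT4, stood at 411, 398 and 441 CPM with vehicle and at 558, 523 and 546 CPM with JQ1, a log2 fold change of 0.38 ± 0.06 (SE, adjusted p = 6.31e-05). All 3 had non-overlapping groups. Acadl and Acsl1, which start beta-oxidation and activate fatty acids, rose by 0.35 ± 0.05 (SE, adjusted p = 7.82e-05) and 0.32 ± 0.06 (SE, adjusted p = 1.80e-04), and Pdk4, the kinase that closes pyruvate dehydrogenase, by 1.18 on the log2 scale (148, 336 and 247 CPM with vehicle, 479.5, 639 and 534 CPM with JQ1). That call was lost without JQ1 replicate 2 (adjusted p = 0.067), JQ1 replicate 3 (0.05) or vehicle replicate 3 (0.06), and with the 6 PLNR9C libraries alone (0.0681). No gene of these lists fell, the glycolysis list apart, where 2 of 22 did.

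In the tricarboxylic acid cycle and at its entry, Pdha1 and Pdhb, subunits of pyruvate dehydrogenase, rose by 0.29 ± 0.06 (SE, adjusted p = 0.00114) and 0.31 ± 0.06 (SE, adjusted p = 5.19e-04), and Idh3a by 0.31 ± 0.06 (SE, adjusted p = 7.16e-04). Glycolytic Pfkl and Pkm rose by 0.47 ± 0.06 (SE, adjusted p = 6.68e-06) and 0.39 ± 0.06 (SE, adjusted p = 8.30e-05). The 48 nuclear genes of oxidative phosphorylation had 8 rises, near the 15.5% of all genes, and no fall, below the 17.7%, with a median of 0.11. This list summed to 19125 to 22687 CPM with vehicle. Among genes of any kind above 101.6 CPM, 32.8% rose and 8.65% fell, also with a median of 0.11. The count of rises in the list was 3 without JQ1 replicate 1, 4 without vehicle replicate 2 and 15 without vehicle replicate 3. Of the 13 mitochondrially encoded genes 2 rose, and 7 without JQ1 replicate 2. Reads from the latter made up 13.9% ± 0.765 of the JQ1 libraries and 13.0% ± 0.310 of the vehicle libraries (SD, n = 3), a difference that did not pass an exact two-sided permutation test (p = 0.2, the smallest possible being 0.1). Among regulators, Nrf1, which drives nuclear genes of mitochondria, rose by 0.76 ± 0.11 (SE, adjusted p = 3.37e-05), Ppargc1b fell by 0.72 ± 0.17 (SE, adjusted p = 0.0102), and Ppargc1a, the best known coactivator of mitochondrial growth, had overlapping groups and a log2 fold change of 0.22 (adjusted p = 0.140).

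These muscle and metabolic genes are among those that differ between genotypes with vehicle, and the levels are given side by side, since both comparisons use the same 3 PLNR9C vehicle libraries. Myh6 stood at 38663 ± 819 CPM in wild type with vehicle, 29065 ± 2172 in PLNR9C with vehicle and 37129 ± 3239 in PLNR9C with JQ1 (SD, n = 3). Fabp3 stood at 711 ± 32.0, 471 ± 60.4 and 675 ± 29.8 CPM in the same groups, and Acaa2 at 533 ± 14.9, 359 ± 40.6 and 503 ± 8.87. In each of these genes the mean of treated PLNR9C ventricle lay between the other means. Gdf15 stood at 2.78 ± 0.905, 17.3 ± 3.27 and 8.17 ± 0.403 CPM. For H2-Aa the values were 31.7 ± 4.04, 80.9 ± 8.02 and 24.04 ± 3.52 CPM, and for Ccr2 1.35 ± 0.0686, 6.14 ± 1.15 and 0.345 ± 0.0997. The last 2 genes had a lower mean in treated PLNR9C ventricle than in untreated wild type ventricle, whereas Gdf15 did not. By list, the median log2 difference between genotypes and the median JQ1 effect were -0.49 and 0.19 for fatty acid oxidation. They were -0.31 and 0.19 for the tricarboxylic acid cycle, -0.27 and 0.11 for oxidative phosphorylation and -0.20 and 0.22 for the sarcomere. Fabp3 and Acaa2 were named for small p, and noise in the shared vehicle libraries moves the 2 comparisons in opposite directions.

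Calcium handling and excitation genes moved in both directions. Cacnb2, the subunit that sets the surface level of the L-type calcium channel, stood at 95.9, 94.5 and 98.7 CPM with vehicle and at 53.2, 44.1 and 57.2 CPM with JQ1, a log2 fold change of -0.91 ± 0.09 (SE, adjusted p = 2.60e-06). Orai1, the store-operated calcium channel, stood at 18.1, 16.2 and 19.6 CPM with vehicle and at 30.8, 30.7 and 28.5 CPM with JQ1, a log2 fold change of 0.74 ± 0.08 (SE, adjusted p = 2.38e-06). The groups were apart in both genes. Casq2, which buffers calcium in the store, rose by 0.34 ± 0.08 (SE, adjusted p = 0.00304). Atp2a2, which codes for SERCA2, rose by 0.17 (12703, 12357 and 13245 CPM with vehicle, 14443, 13703 and 15033 CPM with JQ1, adjusted p = 0.0337). The Atp2a2 call was lost under upper-quartile scaling (adjusted p = 0.0814), with the 6 PLNR9C libraries alone (0.0690), and without JQ1 replicate 1 or 3 or vehicle replicate 1 or 2 (adjusted p up to 0.141).

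Of 25 ion channel genes 9 fell and 2 rose, against 17.7% and 15.5% of all genes, with a median of -0.21. The fits without 1 library had 5 to 8 falls, with 5 when JQ1 replicate 2 was left out. Kcnj11, the pore of the ATP-sensitive potassium channel, stood at 157, 157 and 175 CPM with vehicle and at 127, 107 and 106 CPM with JQ1, a log2 fold change of -0.53 ± 0.07 (SE, adjusted p = 1.42e-05). Kcnd3 and Kcnip2, which make the transient outward current, fell by 0.64 ± 0.10 (SE, adjusted p = 7.35e-05) and 0.62 ± 0.11 (SE, adjusted p = 8.09e-04), and Kcnj5, part of the muscarinic potassium channel, by 0.51 ± 0.08 (SE, adjusted p = 5.67e-05). Of the 22 neurohormonal genes 2 rose and 5 fell (3 to 7 falls without 1 library), with a median of -0.04, close to the background. Among its falls, and picked as such, Ednrb, a receptor of endothelin, stood at 17.7, 18.9 and 19.9 CPM with vehicle and at 7.79, 8.29 and 8.11 CPM with JQ1, a log2 fold change of -1.22 ± 0.12 (SE, adjusted p = 6.42e-07), Ednra at 67.6, 60.3 and 68.3 CPM with vehicle and at 36.8, 30.3 and 34.0 CPM with JQ1, a log2 fold change of -0.96 ± 0.10 (SE, adjusted p = 1.41e-06), and Npr3, which clears natriuretic peptides, at 25.6, 26.9 and 29.0 CPM with vehicle and at 14.5, 11.2 and 8.86 CPM with JQ1, a log2 fold change of -1.23 ± 0.22 (SE, adjusted p = 0.00177). The groups did not overlap in any of these 7 genes. Npr1 and Adrb1, the receptors of atrial natriuretic peptide and of noradrenaline, rose by 0.44 ± 0.07 (SE, adjusted p = 1.32e-04) and 0.60 ± 0.15 (SE, adjusted p = 0.00744).

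Cardiac transcription factors had 5 rises and 6 falls of 20, against 15.5% and 17.7% of all genes. The fits without 1 library had 4 to 7 rises and 6 falls. Irx4, which marks ventricular identity, stood at 33.7, 34.0 and 33.0 CPM with vehicle and at 18.9, 20.1 and 18.9 CPM with JQ1, a log2 fold change of -0.80 ± 0.08 (SE, adjusted p = 8.86e-07). Myocd, a coactivator of muscle genes, Nfatc2, a target of calcineurin, and Tbx5 fell by 0.68 ± 0.10 (SE, adjusted p = 5.94e-05), 0.71 ± 0.09 (SE, adjusted p = 4.77e-06) and 0.46 ± 0.09 (SE, adjusted p = 9.17e-04). Hand2 stood at 33.3, 28.1 and 35.3 CPM with vehicle and at 51.4, 53.7 and 59.0 CPM with JQ1, a log2 fold change of 0.76 ± 0.10 (SE, adjusted p = 1.72e-05). Foxo1, Gata6 and Nkx2-5 rose by 0.82 ± 0.14 (SE, adjusted p = 0.00137), 0.38 ± 0.06 (SE, adjusted p = 1.42e-04) and 0.34 ± 0.09 (SE, adjusted p = 0.00597), so the regulators of heart development did not move as one.

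The TGF-beta list had 5 rises and 8 falls of 27, against 15.5% and 17.7% of all genes. The fits without 1 library had 4 to 5 rises and 8 to 9 falls. Meox1, a homeobox gene of activated fibroblasts, stood at 13.1, 11.6 and 10.2 CPM with vehicle and at 3.46, 3.37 and 3.80 CPM with JQ1, a log2 fold change of -1.72 ± 0.18 (SE, adjusted p = 1.03e-06). Tgfb2 stood at 36.1, 49.0 and 28.0 CPM with vehicle and at 16.3, 24.8 and 23.0 CPM with JQ1, a log2 fold change of -0.82 ± 0.22 (SE, adjusted p = 0.0165), a call lost with the 6 PLNR9C libraries alone (adjusted p = 0.0691). Tgfb3 and Tgfbr2 fell by 0.65 ± 0.10 (SE, adjusted p = 9.11e-05) and 0.58 ± 0.07 (SE, adjusted p = 4.10e-06), and the activin chains Inhba and Inhbb by 1.68 ± 0.49 (SE, adjusted p = 0.0131) and 1.45 ± 0.28 (SE, adjusted p = 5.77e-04) from levels of a few CPM or less. The ligand Tgfb1 and the receptor Tgfbr1 went up, by 0.59 ± 0.06 (SE, adjusted p = 1.36e-06) and 0.38 ± 0.07 (SE, adjusted p = 4.04e-04), as did the feedback inhibitor Smad7 (log2 fold change 0.44 ± 0.09, adjusted p = 0.00134). The members of this pathway named here thus changed in opposite directions, ligands and receptors alike.

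Few matrix genes passed. Of 42 extracellular matrix genes 2 rose and 2 fell, a smaller share than the background in either direction, and the fits without 1 library had 0 to 5 rises and 1 to 4 falls, with 5 rises when vehicle replicate 2 was left out. Col1a1 stood at 196, 271 and 207 CPM with vehicle and at 225, 289 and 204 CPM with JQ1 (log2 fold change 0.09, adjusted p = 0.752). The log2 fold change of Col3a1 was 0.11 (adjusted p = 0.761) and that of Postn, the periostin of activated fibroblasts, -0.14 (adjusted p = 0.757). Ctgf and Timp1 did not pass either (log2 fold changes of -0.24 and -0.34, adjusted p of 0.233 and 0.522). The libraries of the groups overlapped for the collagens and Postn, with JQ1 replicate 2 the highest of the 6. Fibroblast markers had 2 rises and 1 fall of 14, against 15.5% and 17.7% of all genes, with 1 to 3 rises and 0 to 1 fall without 1 library. They summed to 3157 to 3397 CPM with vehicle and 3699 to 3952 CPM with JQ1. Of 23 genes of Notch and Vegf angiogenesis 6 rose and 7 fell, against the same shares of all genes, with 3 rises without JQ1 replicate 1 and 4 falls without JQ1 replicate 2. Of those, Angpt2, an angiopoietin, fell by 1.01 ± 0.22 (SE, adjusted p = 0.00173), Vegfc by 0.93 ± 0.21 (SE, adjusted p = 0.00253) and Esm1, a marker of tip cells, by 2.15 ± 0.37 (SE, adjusted p = 1.94e-04), while the Notch ligand Jag1 rose by 0.50 ± 0.09 (SE, adjusted p = 5.50e-04). Endothelial markers as a list had 2 rises and 3 falls of 16, close to the 15.5% and 17.7% of all genes. Without 1 library they had 0 to 3 rises and 1 to 2 falls. Picked from the falls of that list, Tek, the angiopoietin receptor, fell by 0.45 ± 0.07 (SE, adjusted p = 1.50e-04).

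Clock genes changed in both directions: 5 rose and 5 fell of 17, against 15.5% and 17.7% of all genes. The fits without 1 library had 4 to 6 rises and 5 to 6 falls. Arntl, which codes for the activator BMAL1, stood at 1.92, 1.06 and 1.16 CPM with vehicle and at 4.83, 3.23 and 3.74 CPM with JQ1, a log2 fold change of 1.47 ± 0.25 (SE, adjusted p = 1.82e-04). Dbp, an output gene that peaks when Arntl is low, stood at 96.6, 98.4 and 103 CPM with vehicle and at 44.7, 70.1 and 74.0 CPM with JQ1, a log2 fold change of -0.66 ± 0.16 (SE, adjusted p = 0.0110). Cry1 rose by 0.91 ± 0.15 (SE, adjusted p = 1.11e-04), Nr1d2 and Per3 fell by 0.45 ± 0.06 (SE, adjusted p = 2.57e-05) and 0.36 ± 0.08 (SE, adjusted p = 0.00133), and Npas2, a partner of BMAL1, stood at 3.34, 3.98 and 4.48 CPM with vehicle and at 1.05, 1.54 and 1.15 CPM with JQ1, a log2 fold change of -1.63 ± 0.25 (SE, adjusted p = 6.53e-05). All of these kept the 3 and 3 libraries apart. The hour of sampling is not given, and its part in these changes was not tested. The glucocorticoid target Fkbp5 stood at 28.5, 17.3 and 23.0 CPM with vehicle and at 80.6, 60.5 and 45.8 CPM with JQ1, a log2 fold change of 1.44 ± 0.40 (SE, adjusted p = 0.0254), and its call was lost without JQ1 replicate 1 or 2 or vehicle replicate 2 or 3 (adjusted p up to 0.0847).

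In stress pathways the genes named here moved in both directions, though their lists had more rises than falls. The integrated stress response had 5 rises and 2 falls of 18, against 15.5% and 17.7% of all genes. Without 1 library it had 4 to 6 rises and 1 to 3 falls. The list of p53 targets and cycle inhibitors had 5 rises and 1 fall of 18, and 3 to 6 rises without 1 library. Gclc, the first enzyme of glutathione synthesis, stood at 28.4, 31.2 and 27.8 CPM with vehicle and at 60.8, 62.6 and 70.4 CPM with JQ1, a log2 fold change of 1.15 ± 0.08 (SE, adjusted p = 3.29e-09), while Nqo1, another NRF2 target, stood at 67.7, 68.8 and 59.2 CPM with vehicle and at 45.8, 43.9 and 39.9 CPM with JQ1, a log2 fold change of -0.59 ± 0.09 (SE, adjusted p = 1.02e-04). The groups were apart in opposite directions. In the integrated stress response, Atf4 and Ddit3 (CHOP) rose by 0.42 ± 0.07 (SE, adjusted p = 7.06e-05) and 0.77 ± 0.11 (SE, adjusted p = 2.04e-05), Sesn2 by 1.13 ± 0.16 (SE, adjusted p = 2.12e-05), and Trib3 fell, at 8.30, 9.90 and 6.30 CPM with vehicle and at 2.23, 4.34 and 2.99 CPM with JQ1, a log2 fold change of -1.34 ± 0.23 (SE, adjusted p = 2.44e-04). Of the p53 targets, Gadd45a rose by 0.88 ± 0.13 (SE, adjusted p = 3.92e-05) and Eda2r, a receptor of the TNF family, fell by 0.91 ± 0.20 (SE, adjusted p = 0.00158). Cdkn1a, the cycle inhibitor p21, stood at 15.3, 19.9 and 18.03 CPM with vehicle and at 43.4, 35.1 and 33.0 CPM with JQ1, a log2 fold change of 1.07 ± 0.27 (SE, adjusted p = 0.0158), a call lost without JQ1 replicate 1 (adjusted p = 0.051) or vehicle replicate 1 (0.061). The muscle ubiquitin ligase Trim63 stood at 180.4, 143 and 184 CPM with vehicle and at 322, 262 and 258 CPM with JQ1, a log2 fold change of 0.73 ± 0.10 (SE, adjusted p = 4.78e-05), and Fbxo40, another ligase of striated muscle, fell by 0.59 ± 0.07 (SE, adjusted p = 2.08e-06).

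Traces of other cells were few. Of 19 lymphocyte markers 4 were tested, which summed to 16.0 to 26.6 CPM with vehicle, a large part of it Blk. Cd4 fell by 1.59 ± 0.28 (SE, adjusted p = 2.15e-04), and Blk, a kinase of B cells, stood at 13.1, 21.1 and 14.8 CPM with vehicle and at 3.92, 3.80 and 3.22 CPM with JQ1, a log2 fold change of -2.15 ± 0.21 (SE, adjusted p = 1.78e-06). Cd3e, a chain of the T-cell receptor complex, rose by 2.77 ± 0.56 (SE, adjusted p = 0.00200) from under 1 CPM, while the other CD3 chains were below the filter on low counts. Red cell genes summed to 90.1 to 149 CPM with vehicle and 174 to 224 CPM with JQ1, apart between groups, though none of the 4 tested passed. Epicardial genes summed to 38.7 to 58.3 CPM with vehicle and 30.7 to 39.3 CPM with JQ1, with 1 rise (Tbx18) of 9. Neutrophil, adipocyte and Schwann cell lists had no gene that passed. Without vehicle replicate 2, however, 3 of 6 adipocyte markers rose, without JQ1 replicate 1, 2 of 6 Schwann and neuronal markers fell, and 1 of 5 neutrophil markers passed in 3 of the fits without 1 library. The part of blood or other cells in the results above was not tested.

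In wild type ventricle of that age most of these changes went the same way. JQ1 changed 4612 genes there, 29.8% of those tested. Of the 2396 rises in PLNR9C 1637 also rose in wild type (68.3%, and 73.8% of the wild type rises) and none fell, and of the 2737 falls 1746 also fell (63.8%, and 73.0%) and 4 rose. These comparisons share no library. Across the 15501 genes the log2 fold changes correlated at a Pearson r of 0.77 and a Spearman rho of 0.76. This describes genes of the same libraries, and genes are no replicates. The test of the difference itself found 1 gene, 0.00645% of those tested, with 871 genes at an unadjusted p under 0.05.

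That gene was Slc7a5, the large neutral amino acid transporter LAT1 (chr8:121881146-121907686). It stood at 27.3, 32.6 and 22.8 CPM with vehicle and 37.6, 41.6 and 36.0 CPM with JQ1 in PLNR9C (log2 fold change 0.48 ± 0.11, adjusted p = 0.00210). In wild type it stood at 8.34, 8.90 and 8.75 CPM with vehicle and 28.8, 23.5 and 25.8 CPM with JQ1, a log2 fold change of 1.58. The rise was thus smaller in PLNR9C, a difference of -1.11 ± 0.16 (SE, adjusted p = 0.0233), from a vehicle level that was higher there. The call was lost without PLNR9C JQ1 replicate 1 or 3, PLNR9C vehicle replicate 1, or replicate 1 or 3 of either wild type group, each of which left 0 genes, while 22 genes passed without wild type vehicle replicate 2. For Hexim1 the JQ1 effects were 2.58 and 2.48 in PLNR9C and wild type, for Ccr2 -4.09 and -3.22, for Tmem173 -2.34 and -2.14, and for H2-Aa -1.74 and -1.32. Trib3, Npr3 and Mybpc3 passed in PLNR9C and not in wild type (-0.23, -0.04 and 0.01), and their differences between genotypes did not pass (adjusted p of 0.829, 0.829 and 0.845). By list, MHC class II and antigen presentation had 2 rises and 6 falls of 15 in wild type, and the tricarboxylic acid cycle 2 rises of 19. The clock had 1 rise and 5 falls of 17 there. No member of these lists had a passing difference between genotypes.

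**Figure D5:**
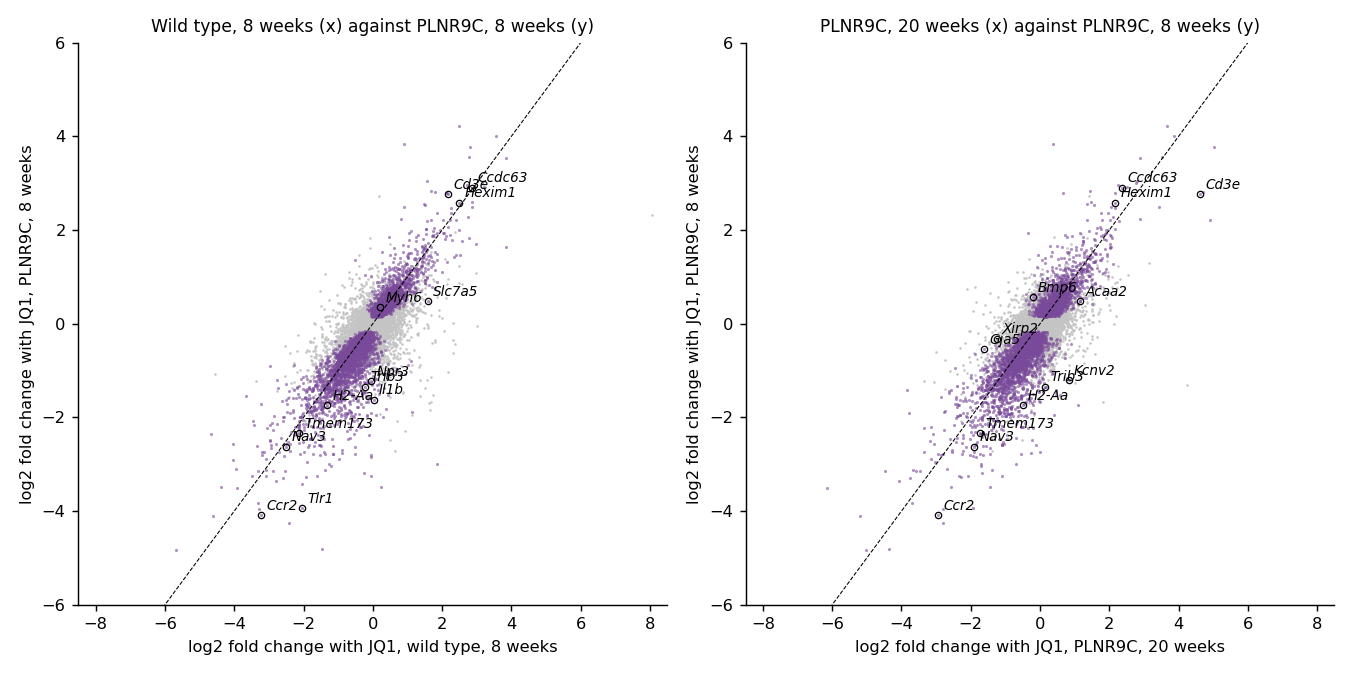
Log2 fold change with JQ1 in PLNR9C at 8 weeks (y) against wild type at 8 weeks (left, x) and PLNR9C at 20 weeks (right, x), 1 point per gene, purple where the gene passed in PLNR9C at 8 weeks, with the line of equal change dashed. Slc7a5, at 0.48 against 1.58, is the gene whose difference between genotypes passed, and Trib3, Xirp2, Acaa2, Gja5 and Bmp6 are among those that differed with age.

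At 20 weeks, in other PLNR9C mice whose disease stage is labelled DCM, JQ1 changed 5097 of 15971 genes, 31.9%, of which 15.9% of the genes tested rose and 16.1% fell. Of the 8-week rises tested at both ages 1526 also rose at 20 weeks (63.7%, and 60.7% of the 20-week rises) and 5 fell. Of the falls 1658 also fell (61.0%, and 67.5%) and 10 rose. The log2 fold changes at the 2 ages correlated at r = 0.78 and rho = 0.73 over 15416 genes. Hexim1 rose by 2.17 at 20 weeks, Brd2 by 1.08 and Jund by 0.89, and Ccr2 fell by 2.94, Tmem173 by 1.73 and Tlr7 by 2.42 on the log2 scale.

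The difference between ages passed for 44 of 16220 genes, 0.271%, in a fit of all 24 ventricle libraries, with 1648 at an unadjusted p under 0.05. The number fell to 28 or fewer without any 1 of the JQ1 libraries of 8 weeks, vehicle replicate 1 or 3 of 8 weeks, JQ1 replicate 1 or 3 of 20 weeks or vehicle replicate 2 of 20 weeks, with 11 in the last of these, and DESeq2 called 141. Acaa2 rose by 0.49 at 8 weeks and 1.17 at 20 weeks (difference -0.66 ± 0.12, adjusted p = 0.0166). Trib3 had log2 fold changes of -1.34 at 8 weeks and 0.14 at 20 weeks (adjusted p of the difference 0.0311), Bmp6, a ligand that controls iron, 0.56 and -0.22 (0.0283), and Gja5, the connexin of conduction cells, -0.54 and -1.61 (0.0184). The Gja5 call at 8 weeks was lost without JQ1 replicate 2 (adjusted p = 0.066) or vehicle replicate 3 (0.1). Xirp2, a protein of the intercalated disc, had -0.32 and -1.25 (0.0284), and its 8-week call was lost without JQ1 replicate 1 or 3 or vehicle replicate 2 (adjusted p up to 0.112), and without the filter on low counts (0.0640). These 5 were picked from the genes already named. By list, 43 of 48 oxidative phosphorylation genes rose at 20 weeks against 8 at 8 weeks, and 10 against 2 matrix genes fell. The list of MHC class II and antigen presentation had 3 falls at 20 weeks against 10, and macrophage markers 5 rises and 1 fall against none and 7. No member of these 4 lists had a passing difference between ages, so the lists are not shown to differ by age. The H2-Aa change was -0.50 at 20 weeks (adjusted p = 0.391), and its difference between ages did not pass (0.328). The ages were separate experiments, so age and experiment cannot be told apart.

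The cell pools of 16-week hearts show where the changed genes are used. Among genes that fell in PLNR9C ventricle, the median log2 ratio of cardiomyocytes to non-myocytes with vehicle was -0.73, against -0.08 for all genes tested and 0.05 for genes that rose. Among those that fell by 2-fold or more it was -2.04, and 542 of the 774 measured in the pools (70.0%) were higher in non-myocytes, against 40.9% of all genes. Genes that rose by 2-fold or more had a median of -0.61. Within the pools, the genes that fell in ventricle had median JQ1 effects of -0.37 in cardiomyocytes and -0.70 in non-myocytes, and those that rose 0.34 and 0.37. These pools are other mice at another age, so the values describe the genes and not the 8-week cells.

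The direction of change also went with the level of a gene, when the genes were cut into 10 bins of equal size by their mean over the 12 libraries. In the lowest bin, up to 0.901 CPM, the median log2 fold change was -0.34, with 3.997% rising and 17.0% falling. In the highest bin, above 101.6 CPM, it was 0.11, with 32.8% rising and 8.65% falling. The bins between followed in order, from -0.23 to 0.07. The same order was seen in wild type, from -0.19 to 0.06, and at 20 weeks, from -0.26 to 0.10. By the length of the gene on the genome the medians by bin had no such order and lay between -0.06 and 0.05. The share that fell was 8.51% in the bin of the shortest genes, 15.0% to 20.1% in the bins between and 21.7% in that of the longest.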

How the data were processed

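RNA was measured by sequencing of whole left ventricle. The authors deposited a table of read counts and RPKM values per gene for each age and cell fraction. RPKM (reads per kilobase per 1e+06 reads) were computed by the authors and were not tested here. STAR 2.4.1b and the builds GRCm38 and mm10 are named in the submitters' processing notes, with no role stated; the counting tool, the annotation and whether strand was used: not given in the sources used here, so overlapping genes cannot be told apart.

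Counts were tested with edgeR 4.0.16 (limma 3.58.1, R 4.3.3): filterByExpr, TMM, robust quasi-likelihood fit of the 12 libraries of the 8-week table by group, Benjamini-Hochberg over all genes tested, threshold 0.05. Cell pools were fitted the same way. CPM are computed from these counts. DESeq2 1.42.0 was an alternative, beside RLE and upper-quartile scaling, no filter, a replicate block, the 6 PLNR9C libraries alone and leaving out each library. The mitochondrial share was tested by exact permutation (scipy 1.17.1); tables and figures used Python 3.11.15, pandas 2.3.3 and matplotlib 3.10.9. The fit was tested on simulated data.

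The comparison, gene lists and named genes were chosen with earlier results of these data known. Named genes are the 10 largest rises and falls and the 8 largest changes in CPM among genes that passed with 10 CPM or more in the higher group and no overlap, up to 4 members per direction and list with the smallest p, genes with a passing difference between genotypes, and a set of always shown genes; some of these are left out of the text. Promoters are from RefSeq, GRCm38.p6. A comparison of promoter composition between calls is void, because 10106 of 15501 genes tested (65.2%) matched.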

Additional observations from a re-analysis of the deposited data

Results flagged for a closer look

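The JQ1 effect differed between PLNR9C and wild type ventricle for 1 gene by the test of the difference itself. This was Slc7a5, whose rise was smaller in PLNR9C, a difference of -1.11 on the log2 scale. The call rests on single libraries, as given with the result above.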

How the results depend on the processing

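The count of genes changed by JQ1 in PLNR9C stayed between 4865 and 5504 under the other scalings, tests, filters and designs tried, against 5133, and between 4099 and 4380 when 1 library was left out. It was 1018 when a 2-fold change was also required. Upper-quartile scaling lowered the share of rises among the calls from 46.7% to 38.1%. The difference between genotypes was called for 8 genes without the filter and 11 by DESeq2, against 1, and for 0 to 22 without 1 library. The difference between ages was called for 141 genes by DESeq2, against 44, and for 11 to 58 without 1 library. The causes of these moves were not tested. At 20 weeks the count was 5008 to 5196 under other settings and 4003 to 4166 without 1 library, against 5097. The difference in mitochondrial share was 0.597 to 1.31 percentage points without 1 library.

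Of 232 named genes that passed, 169 passed in every fit without 1 library. The sign turned only in genes that had not passed. Under upper-quartile scaling Ddx3y stood at -0.0144. Without 1 library C1qb ranged from -0.24 to 0.0133, Ccl2 from -0.50 to 0.0899, Col1a1 from -0.0642 to 0.25, Col3a1 from -0.0256 to 0.22, Myh7 from -0.26 to 0.0328, Pln from -0.0747 to 0.00501, Postn from -0.38 to 0.0405, Uty from -0.16 to 0.00633 and Xist from -0.29 to 0.11. The medians of the cardiac transcription factor and matrix lists, 0.01 each, became -0.03 under upper-quartile scaling.

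Same-numbered JQ1 and vehicle libraries share a number and no stated litter or day. Their deviations from the group means correlated at 0.0744, 0.120 and 0.0795 in PLNR9C and at -0.0186, 0.0467 and -0.0676 in wild type, so no pairing was established. With the replicate number as a block 5116 genes passed, or 5504 in the 6 PLNR9C libraries alone. In PLNR9C every JQ1 library correlated best with the vehicle library of its own number, a hint from the data and not from the design. Among the named genes the block in the fit of 12 libraries ended 6 calls, Brd3 (adjusted p = 0.0520) and Mrc1 (0.0653) among them, and added 1, Egr1 (0.0336). In the 6 libraries alone it ended 7, Cx3cr1 (0.105) among them, and added 7, among them Acta1 (1.11e-05), Nppa (0.00980), Nppb (0.0339), Csf1r (0.0365), Ppargc1a (0.0239) and Hba-a2 (4.18e-06). The block gave 1 gene for the difference between genotypes, 5192 genes at 20 weeks and 65 for the difference between ages.

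With 3 libraries a group, changes of low genes are the least precise, and Ccl12, Tlr1 or Cd3e rest on few reads.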

Other observations

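Several gene lists in PLNR9C ventricle were not counted above. Of 28 cytosolic ribosomal proteins 3 rose and none fell with JQ1, of 20 genes of the unfolded protein response 3 rose and 1 fell, and of 16 heat shock genes 4 rose and none fell. Of 20 genes of cholesterol synthesis 3 rose and 1 fell, and of 30 cell cycle genes 3 rose and 3 fell. These counts rest on single libraries. The fits without 1 library gave 1 to 4 rises of ribosomal proteins, 1 to 6 of the unfolded protein response, 1 to 5 of heat shock genes and 1 to 4 of cholesterol synthesis, and 1 to 4 falls of cell cycle genes. At 20 weeks 19 of the ribosomal protein genes and 15 of the unfolded protein response rose, and no member of either list had a passing difference between ages. Among 20 antioxidant genes 9 rose and 2 fell, and among 19 genes of autophagy and ubiquitin ligases 8 rose and 2 fell, shares of rises above the 15.5% of all genes. Leaving out 1 library left 8 to 9 rises in either list. Smooth muscle and pericyte markers had 2 rises and 3 falls of 13, against 15.5% and 17.7% of all genes.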
